A study of Mus musculus with 6 samples.

Results

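Nuclear genes for the subunits of respiratory complexes II to V were followed in RNA-seq of mouse intestinal lymphoid cells treated with PEox or with vehicle. Members were protein-coding rows of the deposited count table with the symbols Sdha to Sdhd (complex II), any symbol that starts with Uqcr, plus Cyc1 (complex III), Cycs (cytochrome c), symbols that start with Cox4 to Cox8 (complex IV) or symbols that start with Atp5 (complex V). The rule used names only, and it found 50 members among 55401 genes, of which complex II held 4, complex III 9, cytochrome c 1, complex IV 18 and complex V 18. The libraries were 3 vehicle and 3 PEox samples, labelled as group 3 innate lymphoid cells (ILC3s) from wild-type mice, taken from lamina propria of the small intestine, with no deletion or transgene named in either group. ILC3s are lymphocytes of mucosal tissue that lack rearranged antigen receptors. The protocol text speaks of pups and the series title of neonatal necrotizing enterocolitis, an inflammatory bowel disease of newborns; no age in days, dose or exposure time was given. PEox is not spelled out in the labels; in work on lipid peroxidation the abbreviation stands for oxidised phosphatidylethanolamine. Nothing in the labels says that the 3 libraries of a group came from separate animals, so a p-value here speaks of the scatter among these libraries alone, and that scatter could be technical.

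The respiratory chain sits in the inner mitochondrial membrane. Complex II passes electrons from succinate to ubiquinone, complex III passes them on to cytochrome c, and complex IV gives them to oxygen. Complexes III and IV pump protons while they do so, and complex V, the ATP synthase, lets the protons flow back and makes ATP. Complex II is built from nuclear genes alone, whereas complexes III, IV and V also hold subunits that mitochondrial DNA encodes.

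Libraries held between 56252806 and 66849230 counts. The members took 1.19% to 1.21% of the counts in vehicle libraries and 0.793% to 0.848% in PEox libraries. Of the 50 members, 47 had a count and 46 had enough counts to be tested among 18253 genes. The 4 untested members were Cox7b2, Cox8c and a second row named Atp5o, with 0 counts in all 6 libraries, and Cox8b, with 4 counts in vehicle 2 and 0 elsewhere. A count of 0 allows up to 0.0449 to 0.0533 CPM (counts scaled to library depth) per library, taking 3 counts as the limit, and covers counting error only. Levels below are CPM scaled by the trimmed mean of M-values (TMM), which assumes that most genes are unchanged, and fold changes are log2 of PEox over vehicle from edgeR.

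The cell type label was checked against marker genes because the protocol text names sorted epithelial cells that carry EpCAM and lack CD45. The 14 ILC3 markers summed to 15933 to 16303 CPM in vehicle and 8809 to 9018 CPM in PEox, with 7 lower and 2 higher. Il23r, the receptor gene for interleukin 23, was at 215 CPM in vehicle and 203 CPM in PEox. The 9 epithelial markers summed to 97.8 to 111 CPM in vehicle and 58.3 to 67.2 CPM in PEox. Epcam itself was at 52.2 CPM in vehicle and 31.9 CPM in PEox, and the keratin gene Krt8 at 31.1 and 15.5 CPM. The enterocyte gene Alpi was at 0 in all 6 libraries. Erythroid markers, mostly globin genes, rose in 5 of 6 cases and their sum went from 2754 to 2802 CPM in vehicle to 5121 to 5808 CPM in PEox. B and plasma cell markers fell in 6 of 6 cases, from sums of 269.9 to 290.2 CPM to sums of 37.5 to 43.1 CPM, and mast cell and basophil markers fell in 5 of 6, from 135 to 148 CPM to 15.9 to 19.7 CPM. T cell markers fell in 5 of 6 cases with 1 higher, from sums of 104 to 117 CPM to sums of 42.2 to 53.9 CPM. NK cell and ILC1 markers fell in 4 of 6, of which 5 were tested, from 154 to 166 CPM to 44.4 to 50.6 CPM. Most of that sum was Gzma, at 130 CPM in vehicle and 41.1 CPM in PEox. Myeloid markers fell in 4 of 7, from 182 to 192 CPM to 77.5 to 102 CPM. The part of these shifts in the member results below was not tested. In bulk RNA, fewer cells of a type and less RNA per cell cannot be told apart.

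The members were lower in PEox almost throughout, and complex II was the exception. Of the 46 tested members 40 fell, 1 rose (Sdhd) and 5 did not pass the test at an adjusted p of 0.05 (Sdha, Cox4i2, Cox6a2, Cox6b2 and Atp5s). In the same fit 18.8% of all 18253 genes were lower and 18.3% higher, or 37.1% in either direction. The median log2 fold change was -0.87 over the tested members, or 54.8% of the vehicle level, and 0.00 over all tested genes. All 3 PEox libraries lay below all 3 vehicle libraries for 42 tested members, a pattern that 26.5% of all tested genes had, and above them for 2, a pattern of 24.1% of the genes. At least a 2-fold fall that passed the test was found for 11 members and for 6.98% of all genes. Differences between complexes or roles are described below without a test. The summed level of all members was 12607 ± 107 CPM in vehicle and 7903 ± 320 CPM in PEox (mean ± SD of 3 libraries).

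**Figure D1:**
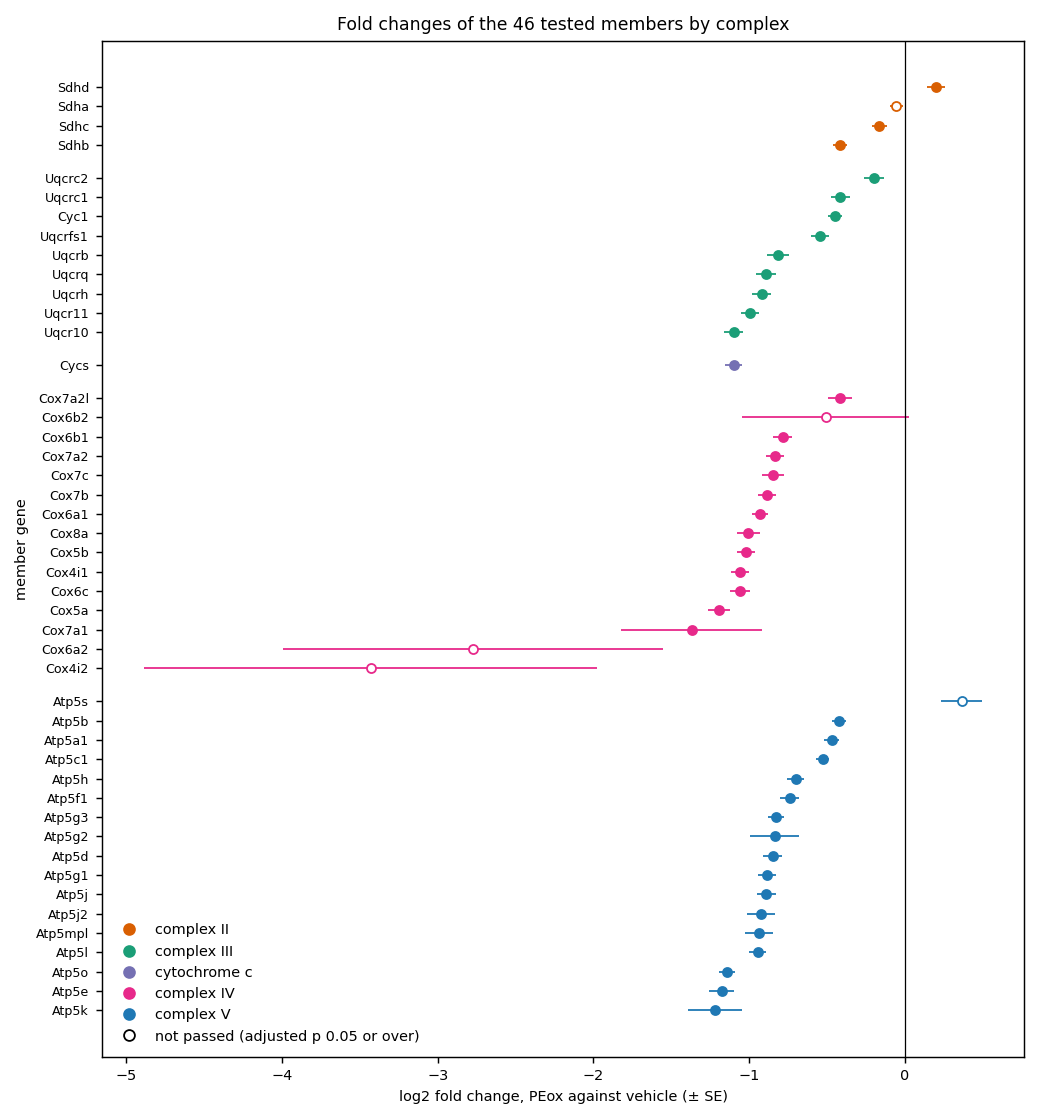
Log2 fold change of PEox over vehicle with its standard error (horizontal axis) for the 46 tested members (vertical axis), coloured by complex, with open circles for members that did not pass the test. Complex III to V members lie left of 0 with the exception of Atp5s at 0.37, whereas the 4 complex II members lie between -0.41 and 0.20.

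Complex II, succinate dehydrogenase, showed a small and mixed response. Its catalytic pair is the flavoprotein Sdha, which oxidises succinate, and the iron-sulfur protein Sdhb. The catalytic pair is anchored in the membrane by Sdhc and Sdhd, which bind ubiquinone and haem. Sdhb was at 325, 320 and 312 CPM in vehicle and 246, 233 and 239 CPM in PEox, with no overlap. It fell by 0.41 ± 0.04 (log2, SE; edgeR adjusted p = 0.0002). Sdha was at 461, 438 and 427 CPM in vehicle and 427, 428 and 422 CPM in PEox, so that the groups overlapped. Its log2 fold change of -0.05 ± 0.04 did not pass the test (edgeR adjusted p = 0.395).

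The membrane anchors of complex II went in opposite directions. Sdhc was at 204, 207 and 208 CPM in vehicle and 188, 178 and 187 CPM in PEox. It fell by 0.16 ± 0.05 (log2, SE; edgeR adjusted p = 0.0256), a change to 89.3% of the vehicle level. Sdhd was at 179, 176 and 163 CPM in vehicle and 207, 193 and 196 CPM in PEox, higher in every PEox library. It rose by 0.20 ± 0.06 (log2, SE; edgeR adjusted p = 0.0237) and was the single member to do so. Both calls were close to the threshold. Sdhc missed it without vehicle 1, 2 or 3 or PEox 2 (adjusted p between 0.0637 and 0.0873). Sdhd missed it without vehicle 2 or 3 or PEox 1 (0.0547 to 0.0828). The log2 fold changes moved little with 1 library left out, from -0.18 to -0.14 for Sdhc and 0.16 to 0.23 for Sdhd. Scaling by library size put Sdhc at -0.03, and it did not pass (edgeR adjusted p = 0.716). Summed over the complex, the level was 1140 ± 29.9 CPM in vehicle and 1048 ± 19.2 CPM in PEox (mean ± SD of 3 libraries).

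Complex III, the cytochrome bc1 complex, fell in all 9 members, with a median of -0.81. Its size varied with the role of the subunit. The 5 small accessory subunits were lowest, with a median of -0.92. Uqcr10 was at 151, 138 and 138 CPM in vehicle and 67.4, 66.8 and 65.7 CPM in PEox, a fall of 1.10 ± 0.06 (log2, SE; edgeR adjusted p = 7.61e-06). Uqcr11 went from 225 ± 10.7 to 113 ± 4.07 CPM (mean ± SD of 3 libraries), a log2 fold change of -0.996. The hinge protein gene Uqcrh and Uqcrq, which carries a quinone-binding subunit, had log2 fold changes of -0.92 and -0.89, and Uqcrb had -0.81.

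The redox and core subunits of complex III fell less. Uqcrfs1, the Rieske iron-sulfur protein that takes electrons from ubiquinol, was at 148, 142 and 143 CPM in vehicle and 96.4, 103 and 97.1 CPM in PEox, a log2 fold change of -0.54 ± 0.06 (SE). Cyc1, cytochrome c1, which hands electrons to cytochrome c, was at 332, 314 and 330 CPM in vehicle and 243, 242 and 232 CPM in PEox, a log2 fold change of -0.45 ± 0.05 (SE). The core proteins Uqcrc1 and Uqcrc2 form the matrix-facing part of the complex. Uqcrc1 was at 566, 524 and 537 CPM in vehicle and 437, 407 and 378 CPM in PEox. It fell by 0.41 ± 0.06 (log2, SE; edgeR adjusted p = 0.000989). Uqcrc2 was at 187, 216 and 201 CPM in vehicle and 170, 181 and 175 CPM in PEox. It fell by 0.20 ± 0.06 (log2, SE; edgeR adjusted p = 0.0388). The Uqcrc2 call was lost without vehicle 2 or 3 or PEox 1 or 3, with adjusted p from 0.0784 to 0.152. Scaling by library size put Uqcrc2 at -0.06, and it did not pass (edgeR adjusted p = 0.501).

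Cycs encodes cytochrome c, the soluble carrier between complexes III and IV, which also starts caspase activation when it leaks from mitochondria. Its level was 290, 283 and 296 CPM in vehicle and 143, 134 and 129 CPM in PEox. The fall was 1.10 ± 0.05 (log2, SE; edgeR adjusted p = 4.12e-06), to 46.7% of the vehicle level. It thus had a log2 fold change beyond the medians of complexes III, IV and V. The difference from those medians was not tested.

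Complex IV, cytochrome c oxidase, had the lowest sum relative to vehicle among the complexes with several members. The summed level went from 3050 ± 30.02 CPM to 1572 ± 96.5 CPM (mean ± SD of 3 libraries). Of 15 tested members 12 fell, with a median of -1.005, and the 11 members at 5 CPM or more in vehicle all fell, with a median of -0.93. Cox5a, which with Cox5b and Cox6c belongs to the subunits that exist in a single form, was at 351, 340 and 354 CPM in vehicle and 167, 150 and 138 CPM in PEox. Its fall of 1.20 ± 0.07 (log2, SE; edgeR adjusted p = 1e-05) took it to 43.6% of vehicle. Cox6c (-1.06), Cox5b (-1.02) and Cox7c (-0.85) completed the single-form group, which had a median of -1.04.

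Several complex IV subunits exist in a widely used form and in tissue-restricted forms, such as those of heart and skeletal muscle. Nearly all of the transcript of each family came from the widely used form. Cox4i1 made up 99.9% of its family per transcript length in vehicle, Cox6a1 99.9%, Cox6b1 99.5% and Cox7a2 98.1%. The corresponding shares in PEox were 99.98%, 99.96%, 99.4% and 98.7%. Cox7b held 100% of its family in both groups, and Cox8a held 99.99% in vehicle and 100% in PEox. Cox4i1, the largest nuclear subunit, was at 620, 633 and 663 CPM in vehicle and 316, 320 and 285 CPM in PEox. It fell by 1.06 ± 0.06 (log2, SE; edgeR adjusted p = 6.17e-06).

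The other widely used forms of complex IV fell as well. Their log2 fold changes were -1.005 for Cox8a, -0.93 for Cox6a1, -0.89 for Cox7b, -0.84 for Cox7a2 and -0.79 for Cox6b1. Cox7a2l, a relative of Cox7a2 that helps join complexes III and IV into supercomplexes, was at 116, 116 and 114 CPM in vehicle and 86.7, 95.2 and 77.9 CPM in PEox. Its log2 fold change of -0.42 ± 0.08 (SE; adjusted p = 0.00373 by edgeR) was the closest to 0 among the complex IV members that fell.

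The tissue-restricted forms were at or below 3 CPM in every library. Cox7a1, a heart and muscle form, was at 2.55, 2.82 and 1.48 CPM in vehicle and 0.85, 1.27 and 0.529 CPM in PEox, and fell by 1.37 ± 0.45 (log2, SE; edgeR adjusted p = 0.0456). The Cox7a1 call was lost without vehicle 1 or 2 or PEox 1 or 3, with adjusted p from 0.0939 to 0.168. Cox4i2, a form induced by low oxygen and found in lung, had 52, 32 and 20 counts in vehicle and 0, 9 and 0 in PEox, and did not pass the test (edgeR adjusted p = 0.106). Cox4i2 passed with limma-voom (adjusted p = 0.0394) and in edgeR without PEox 2 (0.00999). Cox6a2, another muscle form, had 81, 59 and 15 counts in vehicle and 10, 0 and 12 in PEox (edgeR adjusted p = 0.117), and passed with DESeq2 (adjusted p = 0.0499). Cox6b2, the testis form, was at 1.83, 2.24 and 1.002 CPM in vehicle and 1.07, 1.93 and 0.562 CPM in PEox, so that the groups overlapped (edgeR adjusted p = 0.528). The 7 muscle markers summed to 2.61 to 4.57 CPM in vehicle and 2.13 to 4.96 CPM in PEox, with Myh4 and Tnnc2 at 0 in all 6 libraries.

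Complex V, the ATP synthase, fell in 16 of 17 tested members, with a median of -0.85 and a sum of 6015 ± 56.02 CPM in vehicle and 3758 ± 164 CPM in PEox (mean ± SD of 3 libraries). The catalytic head had a median of -0.53 over 5 subunits, against -0.81 for the stalk, -0.84 for the c-ring and -0.94 for the membrane part. With the trend on transcript length removed (described below) this order was not kept, and the medians were -0.50, -0.42, -0.31 and -0.46. Atp5b, the catalytic beta subunit, was at 1281, 1222 and 1278 CPM in vehicle and 986, 939 and 892 CPM in PEox. It fell by 0.42 ± 0.05 (log2, SE; edgeR adjusted p = 0.0002). Its alpha partner Atp5a1 had a log2 fold change of -0.47 and the gamma subunit Atp5c1, the shaft that turns inside the head, one of -0.53. The small epsilon subunit Atp5e, at the foot of that shaft, was at 119, 122 and 116 CPM in vehicle and 50.8, 58.5 and 48.7 CPM in PEox, a fall of 1.18 ± 0.08 (log2, SE; edgeR adjusted p = 2.01e-05). Atp5d, the delta subunit beside it, had a log2 fold change of -0.85.

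All 4 stalk subunits and all 4 membrane subunits of complex V fell. Atp5o, which ties the head to the outer stalk, was at 379, 397 and 397 CPM in vehicle and 185, 177 and 169 CPM in PEox. Its fall of 1.14 ± 0.05 (log2, SE; edgeR adjusted p = 2.86e-06) had the smallest p among the members. The other stalk subunits Atp5j (-0.89), Atp5f1 (-0.74) and Atp5h (-0.70) also fell. Atp5k, subunit e of the membrane part, where dimers of the synthase meet, was at 12.8, 13.6 and 14.2 CPM in vehicle and 5.93, 6.67 and 4.79 CPM in PEox, a fall of 1.22 ± 0.17 (log2, SE; edgeR adjusted p = 0.000854). The membrane subunits Atp5l and Atp5mpl, at -0.94 each, and Atp5j2, at -0.92, stood close together.

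The rotating c-ring of complex V is made of 1 mature protein that 3 genes encode. All 3 genes fell, with log2 fold changes of -0.89 for Atp5g1, -0.84 for Atp5g2 and -0.83 for Atp5g3. Atp5g2 was at 96.5, 100 and 103 CPM in vehicle and 63.9, 63.1 and 40.9 CPM in PEox, with PEox 3 well below the other PEox libraries, and its log2 fold change was -0.65 without that library. With the length trend removed the values of Atp5g1, Atp5g2 and Atp5g3 were -1.17, -0.25 and -0.31, and Atp5g2 no longer passed (edgeR adjusted p = 0.221). With median in place of longest transcript lengths they were -1.07, -0.37 and -0.50. Which transcript of each gene was expressed was not tested. The shares of the 3 genes in the family were close in both groups. Per length of the longest transcript, Atp5g3 held 76.1 ± 0.36% in vehicle and 76.6 ± 2.30% in PEox (mean ± SD of 3 libraries). Atp5g2 held 16.3% and 16.1%, and Atp5g1 7.57% and 7.30%. These shares depend on the length used, since the longest Atp5g1 transcript has 4715 bases; of raw counts Atp5g1 held 34.6% in vehicle and 33.8% in PEox.

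Atp5s, factor B, was the complex V member with a positive log2 fold change. It was at 11.2, 13.2 and 11.3 CPM in vehicle and 14.6, 15.8 and 15.6 CPM in PEox, higher in every PEox library. The difference of 0.37 ± 0.13 (log2, SE) did not pass the test (edgeR adjusted p = 0.0623), and DESeq2 (adjusted p = 0.0463) and limma-voom (adjusted p = 0.0482) put it just past the threshold.

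Within each group the libraries lay close together. For the 42 members at 5 CPM or more in vehicle, the median coefficient of variation was 2.64% in vehicle and 5.23% in PEox. The median member of complex IV stood at 53.2%, 53.4% and 49.3% of its vehicle mean in PEox 1, 2 and 3, and that of complex II at 94.0%, 91.5% and 93.0%. PEox 3 was the lowest of the 6 libraries for 32 of the 42 members, PEox 1 for 5 and PEox 2 for 3. Without PEox 3 the median over the tested members was -0.83.

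**Figure D2:**
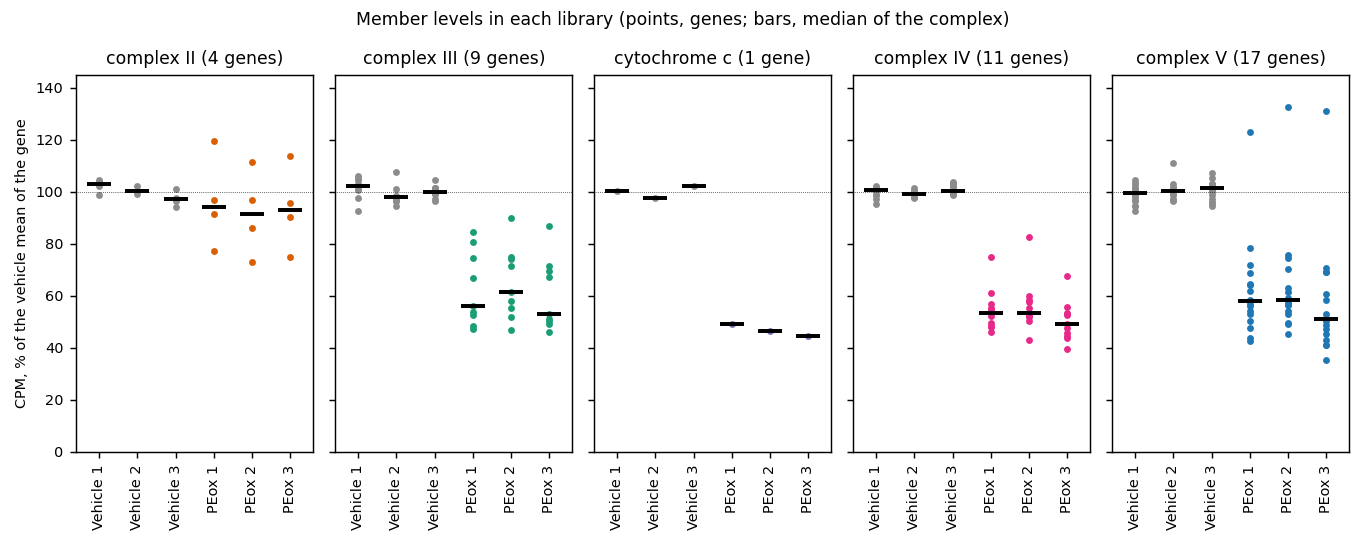
Level of each member in each library as a percent of its vehicle mean (vertical axis), by complex, for the 42 members at 5 CPM or more in vehicle; points are genes and bars the median of the complex. Complex II points of PEox libraries straddle 100%, cytochrome c lies between 44.5% and 49.3%, and the PEox medians of complex IV lie between 49.3% and 53.4%.

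Levels can be compared between genes only per length of transcript, and were set to CPM per kilobase of the longest reference transcript for this. The order depends on this length. In vehicle it was led by Cox6a1 (878 CPM per kilobase), Cox4i1 (835), Atp5b (658), Atp5g3 (619) and Cox6b1 (558), and none of these neighbours overlapped over the 3 libraries. From Uqcrh (361) down to Sdhb (279), by contrast, each gene overlapped the next. The lowest of the 42 were Cycs (92.8), Sdhc (65.0), Atp5g1 (61.5), Atp5k (36.4) and Atp5s (7.45). In PEox the beta subunit Atp5b stood first at 490.1 CPM per kilobase, ahead of Cox6a1 at 462 and Cox4i1 at 401. With the median transcript length of each gene in place of the longest, Uqcrc1 stood first in both groups (rank 17 in vehicle with the longest), at 1017 CPM per kilobase in vehicle and 764 in PEox, with Atp5b at 658 and 490.1. Sdhc was then at 253 CPM per kilobase in vehicle (rank 28) and Atp5g1 at 108 (rank 37), whereas Cycs, Atp5k and Atp5s stayed the lowest of the 42.

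**Figure D3:**
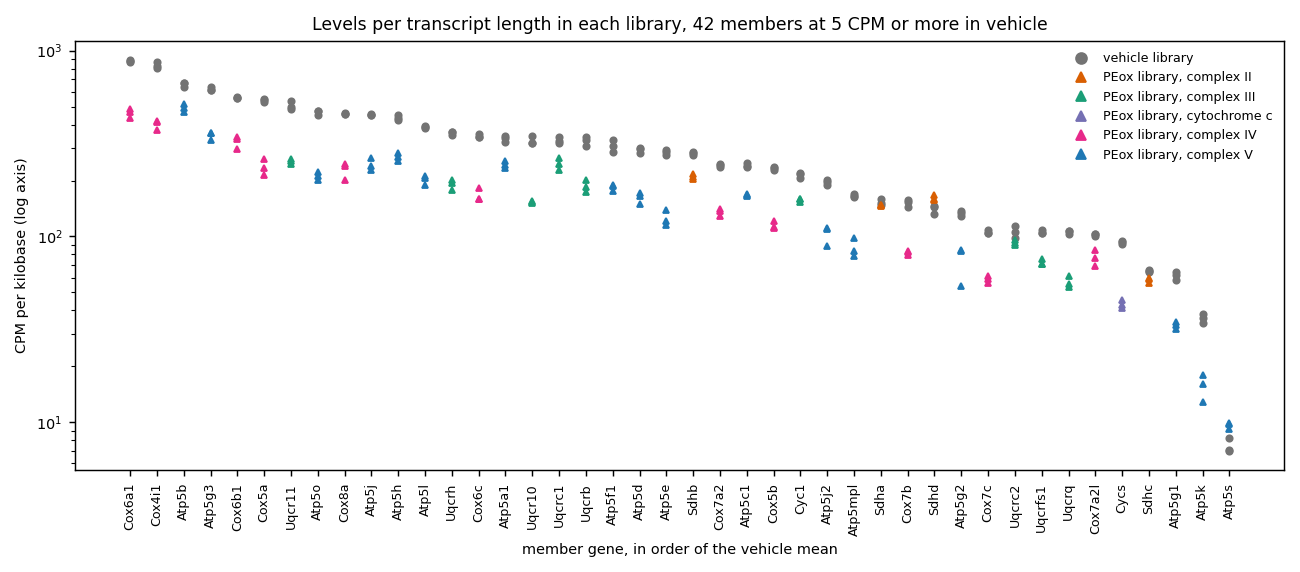
CPM per kilobase of the longest reference transcript (log axis) for the 42 members at 5 CPM or more in vehicle, in the order of their vehicle mean, with 1 point per library. PEox triangles lie below vehicle circles for all but Sdhd and Atp5s, where they lie above, and Sdha, where the groups overlap.

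Subunits of the respiratory chain are mostly small proteins with short transcripts, and in these libraries short transcripts were lower in PEox as a class. The longest reference transcript of the tested members had a median of 787 bases, against 2596.5 for 18230 tested genes with a length. Among all tested genes the median log2 fold change was -0.53 under 500 bases, -0.46 from 500 to under 1000, -0.23 from 1000 to under 2000, 0.09 from 2000 to under 4000 and 0.27 from 4000 bases on. The members lay below the median of their class in each case, at -1.18 (5 members), -0.93 (22), -0.44 (14), -0.32 (4) and -0.89 (1, Atp5g1). The Spearman correlation of length with log2 fold change was 0.60 over the 46 members and 0.32 over the 18230 genes; genes share their libraries and are not independent, so neither carries a p.

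The order of the members by role ran alongside length. The 5 small subunits of complex III had a median transcript of 535 bases and its 2 core subunits one of 1774.5. The 5 head subunits of complex V had a median of 1735 bases, whereas its short head subunit Atp5e has 421. When the trend of each library on length and GC content was removed, 35 members were lower, 2 were higher and 9 did not pass, with a median of -0.35 (0.01 over all genes, of which 17.1% were lower). Of the 40 members called lower without that step, 34 were still called lower. Cycs, with a transcript of 3123 bases, was at -1.27 after it, and Atp5g1 at -1.17.

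After removal of the trend, complex IV had a median of -0.48, complex V of -0.42, complex III of -0.30 and complex II of -0.06. Sdhd was then higher by 0.54 on the log2 scale and Atp5s by 0.49, and both passed the test (edgeR adjusted p = 0.000246 and 0.0248). Within complex III the small subunits were at a median of -0.37 after this step, the redox subunits at -0.19 and the core subunits at -0.13. Within complex V the head, at -0.50, was then no longer above the other parts, and with median instead of longest transcript lengths the medians of head, stalk, c-ring and membrane part were -0.50, -0.51, -0.50 and -0.59. With the longest transcript lengths Sdhb was at 0.03 and no longer passed, whereas Sdha, at -0.16, did. Cox7a2l, Uqcrc1, Uqcrc2, Atp5g2 and Cox7a1 also lost their calls. With median lengths this was the other way round for complex II. Sdhb, at -0.15, passed (edgeR adjusted p = 0.0301) and Sdha, at -0.04, did not (0.508). Cox7a2l then kept its call (edgeR adjusted p = 0.0474), whereas Cyc1 lost its call (0.491).

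**Figure D4:**
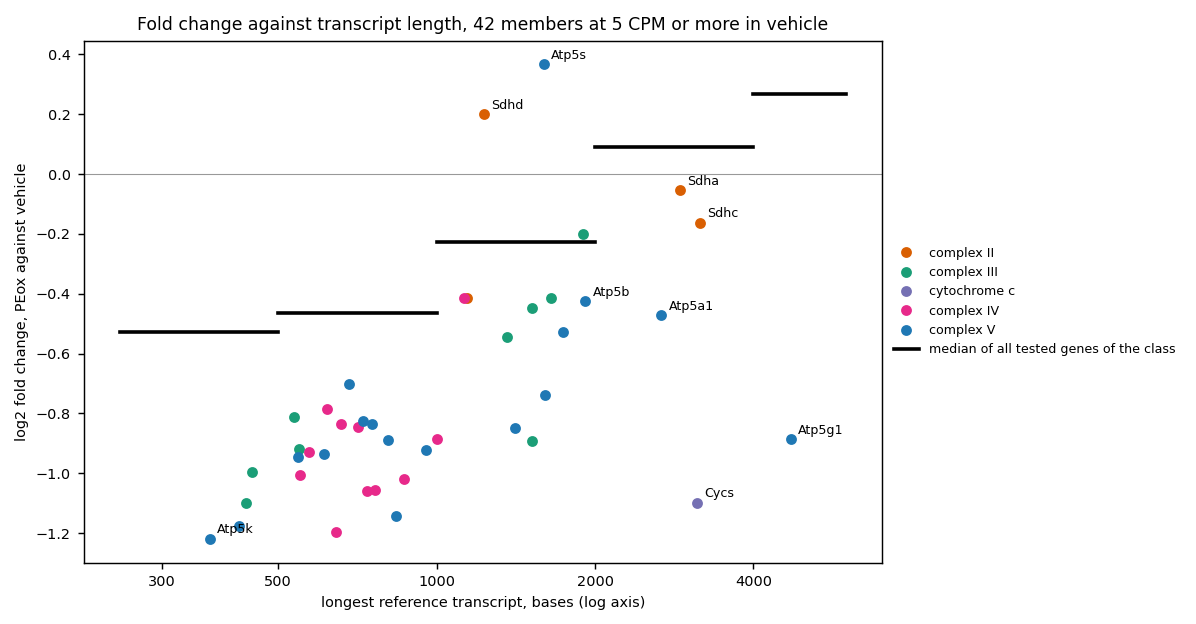
Log2 fold change (vertical axis) against the length of the longest reference transcript in bases (horizontal log axis) for the 42 members at 5 CPM or more in vehicle, with bars at the median of all tested genes in 5 length classes. Most members lie below the bar of their class, and Sdhd, Atp5s and Uqcrc2 lie above it. Cycs and Atp5g1 are low although their longest reference transcripts are long.

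Genes that work with the members were read from lists of partner genes. Mitochondrial DNA encodes 6 further subunits of complexes III to V, and 5 of them fell, with a median of -0.87. The ATP synthase subunits mt-Atp6 and mt-Atp8 had log2 fold changes of -1.17 and -0.94, the oxidase subunit mt-Co3 one of -1.03, and mt-Co1, the catalytic core of complex IV, did not pass at -0.16 ± 0.10 (SE; adjusted p = 0.251 by edgeR). Without vehicle 3 mt-Co1 was at -0.28 and passed (edgeR adjusted p = 0.00694). With the length trend removed 5 of the 6 were lower, with a median of -0.44. Mitochondrial transcripts made up 1.63% to 1.83% of the counts in vehicle and 1.21% to 1.38% in PEox. Of the 37 nuclear subunits of complex I, the NADH dehydrogenase that feeds the chain beside complex II, 36 fell and 1 rose, with a median of -0.80. Ndufs6 (-1.10), Ndufb9 (-1.06) and Ndufb7 (-1.04) fell by amounts like those of complex IV before any removal of the length trend. The riser was Ndufs1 (0.56), the largest iron-sulfur subunit of complex I. With the length trend removed Ndufa1, Ndufa3, Ndufa6, Ndufa7, Ndufa8, Ndufb3, Ndufb10, Ndufs3 and Ndufv1 lost their calls. The 3 subunits and regulators that the symbol rule misses also fell, and all 3 were still lower with the length trend removed (median -0.40). These were Ndufa4 (-0.78), a complex IV subunit despite its name, Usmg5 (-1.04), a membrane subunit of the ATP synthase, and Atpif1 (-1.02), which inhibits the synthase when it runs in reverse.

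Assembly factors were mixed. Over all genes tested 18.8% were lower and 18.3% higher. For complex II, 3 of 4 fell with a median of -0.36, led by Sdhaf1 (-0.91), which helps insert iron-sulfur clusters into Sdhb. For complex III, 2 of 7 fell, Uqcc2 (-1.42) and Uqcc3 (-0.69), and the list median was -0.16. For complex IV, 14 of 26 tested factors fell and 3 rose, with a median of -0.35. Higd1a (-1.18) and Coa3 (-0.81) were among the fallers, and the risers were Cox15 (0.99), which makes haem A, the RNA-binding protein gene Lrpprc (0.70) and Coa5 (0.74). For complex V, Fmc1 (-1.07), Tmem242 (-0.86) and Tmem70 (-0.29) fell and the other 2 of 5 did not pass. With the length trend removed Uqcc3, Fmc1 and Tmem70, among the factors named here, lost their calls. The list medians of complexes II, III, IV and V were then -0.54, -0.15, -0.15 and -0.16. Of these lists 3 of 4, 1 of 7, 9 of 26 and 1 of 5 factors were lower, against 17.1% of all genes. The shares for complexes III and V are near that of all genes.

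The electron entry routes that bypass complexes I and II were mixed. Of 8 genes for dehydrogenases linked to ubiquinone or for the electron transfer flavoprotein, 3 fell and 2 rose. Their median was -0.10 (18.8% of all genes fell and 18.3% rose). Etfb (-1.13), a subunit of the electron transfer flavoprotein, fell. Etfdh (0.76), which takes electrons from that flavoprotein to ubiquinone, and the sulfide oxidase gene Sqor (1.31) rose. With the length trend removed 3 of these 8 genes were lower and 2 higher, with a median of -0.34. Carriers and channels of the mitochondrial membranes were lower in 6 of 8 cases, with a median of -0.48. They included the ADP/ATP exchangers Slc25a5 (-0.71) and Slc25a4 (-0.57), and the uncoupling protein relative Ucp2 (-0.92). With the length trend removed 5 of the 8 carriers and channels were lower, with a median of -0.27.

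Regulators of mitochondrial gene expression were mixed, with 4 higher, 2 lower and 10 not passing among 16 tested and a median of 0.19. These shares are near those of all genes, of which 18.3% were higher and 18.8% lower. Their transcripts are long, with a median of 3705.5 bases against 787 for the members. With the trend on the longest transcript length removed 3 were higher and 2 lower, with a median of -0.04. The calls depend on the length used. With median transcript lengths in that step Pprc1 (0.67) and Tfam (0.29) passed as higher. Yy1 (-0.40) then passed as lower, and Sirt3 (-0.03) lost its call. The mitochondrial DNA polymerase gene Polg (1.04), the mitochondrial RNA polymerase gene Polrmt (0.94), Gabpa (0.97) and Nrf1 (0.40) rose, and the last 2 encode transcription factors known for binding promoters of respiratory chain genes. Nrf1 was at 74.8 ± 4.04 CPM in vehicle and 98.4 ± 19.1 CPM in PEox (mean ± SD of 3 libraries; adjusted p = 0.0452 by edgeR). After removal of the trend on the longest transcript length its edgeR adjusted p was 0.354. The Nrf1 call was also lost without any 1 of the 3 vehicle libraries or PEox 2 or 3, with log2 fold changes of 0.24 to 0.44. Myc (-0.87) and the deacetylase gene Sirt3 (-0.30) fell. The Sirt3 call was lost without vehicle 1 or 3 or any 1 of the 3 PEox libraries (adjusted p up to 0.127) and with scaling by library size (-0.16), and Sirt3 was at -0.02 with the length trend removed. Tfam (0.13), Gabpb1 (0.23), Pprc1 (0.20), Ppargc1b (0.19), Ppargc1a (0.69), Twnk (0.42), Yy1 (-0.05), Esrra (-0.21), Tfb2m (-0.24) and Tfb1m (-0.46) did not pass. Of these, Twnk passed with DESeq2 (adjusted p = 0.0252) and limma-voom (0.0476), Tfb1m in edgeR without PEox 1 (-0.72), and Yy1 with the length trend removed (-0.39). Ppargc1a, the coactivator gene best known for driving mitochondrial biogenesis, was at 0.375 CPM in vehicle and 0.608 CPM in PEox.

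The partners of cytochrome c in cell death were also split, with 3 of 7 higher and 3 lower (18.3% and 18.8% of all genes). Hccs (0.56), which attaches haem to cytochrome c, Apaf1 (0.73), its cytosolic binding partner, and Casp9 (0.65), the caspase they activate, rose. Bax (-0.40) and Bak1 (-0.74), which open the outer membrane, and Diablo (-0.38), released with cytochrome c, fell. Casp9 missed the threshold after removal of the length trend (edgeR adjusted p = 0.051), and Bax was then at 0.05. The Bak1 call was lost without any 1 of the 3 vehicle libraries or PEox 2 or 3 (adjusted p up to 0.0989) and with scaling by library size (0.0596).

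**Figure D5:**
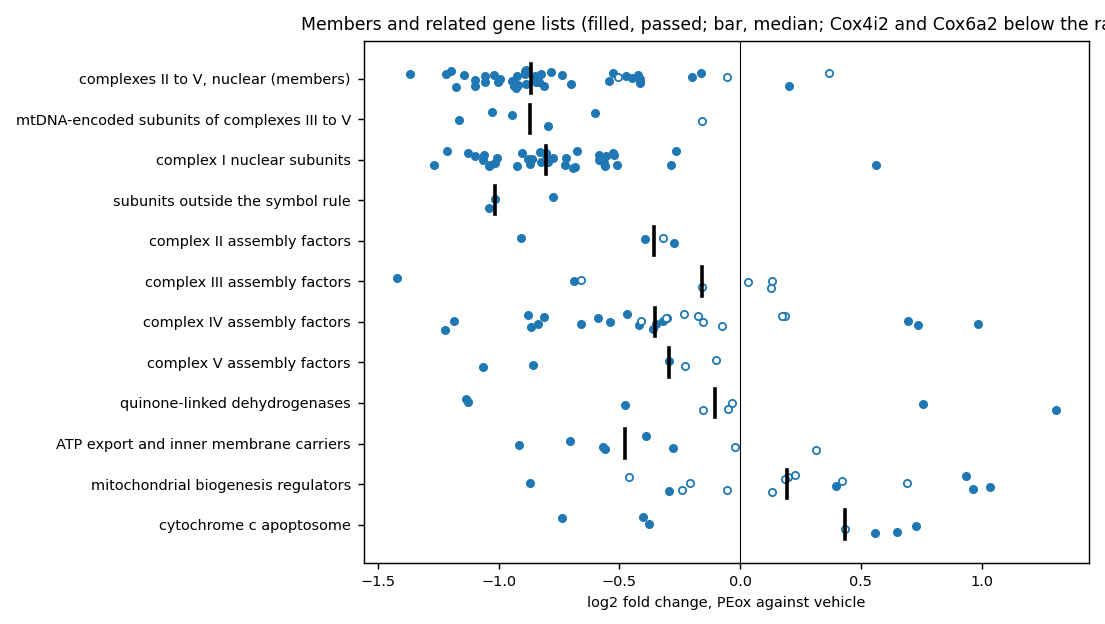
Log2 fold change of PEox over vehicle (horizontal axis) for each tested gene of the members and of 11 related lists (vertical axis), with filled circles for genes that passed the test and bars at the list medians; the members Cox4i2 and Cox6a2 lie below the drawn range. Members, mitochondrially encoded subunits and complex I subunits have medians between -0.87 and -0.80, and the regulators, whose transcripts are longer (median 3705.5 bases against 787 for the members), have a median of 0.19.

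Promoter sequences from RefSeq (GRCm38.p6, 250 bases before to 50 after the start of a gene) were found for 35 of the 46 tested members. The recognition sequence of NRF1, GCGCA, any 1 base, then GCGC, searched on both strands, was present in 10 of the 35 members (28.6%), in 4.60% of all 32851 promoters and in 10.4% of 11581 tested genes with a promoter. The core for GABPA and other ETS factors, CCGGAAG, was present in 12 members (34.3%), 8.86% of promoters and 18.7% of tested genes. A match is a description of the letters, not a measured binding site. The stretches below show what such matches look like in members of complexes II, IV and V, with 1 match of each in capitals (Sdha has 3 matches and Cox6a1 has 2); all lie on the minus strand and are written from 5′ to 3′ along the gene. They lie at chr13:74350276-74350305 for Sdha, chr9:50603909-50603938 for Sdhd, chr5:115349101-115349130 for Cox6a1, chr5:108434430-108434459 for Atp5k and chr15:102671070-102671099 for Atp5g2.
Sdha: ggggcgtgttGCGCAGGCGCagaatcttcc
Sdhd: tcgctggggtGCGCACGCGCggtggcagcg
Cox6a1: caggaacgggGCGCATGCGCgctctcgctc
Atp5k: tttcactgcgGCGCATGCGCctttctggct
Atp5g2: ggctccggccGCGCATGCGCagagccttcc

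Fold changes of members with and without a motif are described here without a test. The 10 members with the NRF1 match had a median log2 fold change of -0.76, with 8 lower. The 25 without it had one of -0.89, with 23 lower. For the ETS core the medians were -0.92 with and -0.84 without. GGGCGG, the SP1 motif, was present in 40.0% of the members and 64.7% of tested genes, and CCAAT in 57.1% and 42.5%. The YY1 motif AAGATGGCG was present in Atp5j and Atp5j2 (median -0.91), the CREB motif TGACGTCA in Cycs and Uqcrfs1, and the ERR alpha motif TCAAGGTCA in Atp5g3 and Sdhd. The TATA box letters TATAAA were present in 1 member, Atp5l. Among all promoters the shares were 35.7% for the SP1 motif, 37.4% for CCAAT, 1.4% for YY1, 1.79% for CREB, 0.423% for ERR alpha and 13.6% for the TATA letters. Each motif was searched on both strands, and 8 motifs were searched in all, of which some can overlap.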

How the data were processed

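The authors deposited 1 table of raw, whole-number gene counts that were not normalized, covering 6 libraries of mouse small-intestinal ILC3s (3 vehicle, 3 PEox). Per the labels' protocols, paired reads of 150 bp from a NovaSeq instrument were cleaned with fastp and aligned with HISAT2 2.0.5; edgeR 3.22.5 is named in the submitters' processing notes. Counter, build, annotation and strand are not given in the sources used here. Values of near-identical copies, and of genes that overlap on either strand, are therefore uncertain. This concerns the members, which have processed pseudogenes: 8 pseudogene rows that match the symbol rule were left out.

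Symbols were matched to 55141 of 55401 identifiers. Genes were filtered with filterByExpr and tested with the robust quasi-likelihood test of edgeR 4.0.16 in R 4.3.3, with group as the single term, TMM factors from 0.951 to 1.05 and Benjamini-Hochberg adjustment over 18253 genes (threshold 0.05). The common biological coefficient of variation came to 34.5%. Standard errors are log2 fold changes over the root of the F statistic. Transcript lengths came from GENCODE M21 (GRCm38), perhaps not the annotation used for counting; the trend on length and GC content was removed by robust loess (span 0.5).

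Members and lists were chosen with earlier results of these data known, and lists carry no test. Named genes were the Sdh genes, Cyc1, Cycs, the extremes of each complex, members that did not fall, isoform families, up to 3 genes per partner list with any that moved against it, and all regulators; other members are named to complete their group. Alternatives were RLE and library size scaling, no filter, a filter at 5 CPM in 3 libraries, a replicate block, each library left out, DESeq2 1.42.0, limma-voom (limma 3.58.1), removal of the length trend, raw-count shares and median transcript length. Counts of library pairs differed by more than sampling noise (chi-square per gene 16.5 to 38.2 within groups). Each library was taken as 1 replicate, although this scatter cannot tell separate animals from separate preparations. The test was checked on simulated data. Some genes of the lists are not reported here by name.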

Additional observations from a re-analysis of the deposited data

How the results depend on the processing

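Of 592 summary values under the alternatives, 540 stayed as reported (counts within 1.5 times) and 52 moved. Of the 40 members called lower, 40 kept their call with RLE scaling, DESeq2 and limma-voom, 39 with no filter, 39 of 39 tested with the filter of 5 CPM, 39 with the replicate block, 37 with library size scaling, and 37 to 39 with a library left out. Leaving out a library gave 37 to 40 lower and 0 to 1 higher members, and a median of -0.92 to -0.83. Library size scaling shifted the median of all genes to 0.14; members then had 2 higher, complex II had 1 lower and a median of 0.028, complex V had 1 higher (Atp5s), and 1 complex II assembly factor and 1 regulator were lower. Without the low count filter 0 members were higher (Sdhd, edgeR adjusted p = 0.0569), and complex II thus had 0 higher. DESeq2 and limma-voom each gave 2 higher members, with 1 in complex V. Replicate numbers did not pair the libraries (correlations of same-numbered deviations 0.0054, 0.0135 and -0.0058), and with the replicate block complex II had 1 lower member and the regulators 1 lower.

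Removal of the length and GC trend moved the fold change of 37 of the 46 members by over 1.5 times. It gave 2 higher members, 1 in complex V, a member median of -0.35, and 1, 9 and 1 lower assembly factors of complexes III, IV and V. Signs turned for Sdhb (0.028), Ndufa3 (0.037), Sdhaf4 (0.054), Cox14 (0.24) and Bax (0.051). A version fitted by least squares was added after seeing the data and shifted the median of all genes to 0.14. It gave 31 lower and 2 higher members, 1 lower in complex II (median 0.023), 1 higher in complex V, a member median of -0.29, and 1, 7 and 1 lower assembly factors of complexes III, IV and V with 5 higher in complex IV. It gave 1 lower regulator and 1 lower cytochrome c partner. Signs turned for Uqcrc2 (0.011), Cox7a2l (0.0027), Sdhb (0.049), Slc25a3 (0.038), Ndufa1 (0.0061), Ndufa3 (0.13), Ndufv1 (0.062), Sdhaf4 (0.14), Cox14 (0.27), Bax (0.050) and Sirt3 (0.058). With median transcript lengths, also added after seeing the data, 34 members were lower and 2 higher, complex II had 1 lower (median 0.023) and complex V 1 higher, with a member median of -0.50. Complex III assembly factors then had 1 higher, complex IV factors 9 lower and cytochrome c partners 1 lower. Signs turned for Uqcrc1 (0.079), Sdhc (0.086), Cox14 (0.045) and Bax (0.017). The cause of each shift beyond the length step itself was not tested. Median lengths moved 25 of 42 levels per kilobase by more than their SD, and raw counts moved 6 of 32 isoform shares. With 3 libraries a group and counts this deep, forms under 3 CPM are the ones that depth limits.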
